A study of Mus musculus with 15 samples.

Results

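The comparison described here set the crushed mouse optic nerve under ciliary neurotrophic factor (CNTF) against the uncrushed nerve. It took 10 of the 15 RNA-seq libraries: 5 from crushed nerves of mice given a vector for CNTF (AAV-CNTF) and 5 from sham-operated nerves of mice given a vector without it (AAV-null), chosen by their labels. All mice were adult C57BL/6J and had an injection of adeno-associated virus serotype 2 into the vitreous of the eye. In the crush AAV-CNTF group the vector coded for a secretable CNTF, the nerve was crushed 2 weeks later, and it was taken 7 days after the crush. In the sham group the nerve was exposed but not crushed. The other 5 libraries, crushed nerves with AAV-null, shared the injury with the first group and the vector with the second, and serve as a side reference. The replicates, numbered 2 to 6, are described as biological. The sex of the mice, the promoter of the vector, the number of nerves in a library and the time of sham tissue collection were not given in the sources used here. Crush and vector changed together between the 2 groups, so their effects cannot be told apart in this comparison.

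Axons in this nerve belong to retinal ganglion cells, which keep their nuclei in the retina. The nerve itself holds oligodendrocytes, astrocytes, NG2 glia (oligodendrocyte precursors named after the proteoglycan encoded by Cspg4), microglia and vessels. Crush cuts the axons off from their cell bodies, and the distal stretch then degenerates, loses myelin and is entered by phagocytes. CNTF binds a receptor made of CNTFR, LIFR and the shared chain gp130 (Il6st). The receptor activates Janus kinases and the transcription factor STAT3, which in turn induces the feedback inhibitor SOCS3.

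Expected counts summed to between 23775487 and 29558293 in the crush AAV-CNTF libraries and between 19856688 and 26411929 in the sham libraries. The tissue label fitted its markers, with high levels of the oligodendrocyte gene Mbp and of the astrocyte gene Gfap in every library. Of 10 retina and pigment epithelium genes, 1 had values here, Mitf, at 24.8 ± 7.26 CPM (counts scaled to library depth; SD, n = 5) after crush and 22.1 ± 6.24 in sham. Crush AAV-CNTF replicate 4 stood apart in interferon and antigen presentation genes, sham replicate 3 in some interferon genes, and sham replicate 5 in skeletal muscle genes. In the side reference, crush AAV-null replicate 6 stood apart from all other libraries. It lay at -99.7 on principal component 2 (8.93% of the variance), where the next lowest library, sham replicate 2, lay at -8.98. Genes without a count made up 3.18% in it, and 2.32% in the next highest library, sham replicate 5. This library is part of the crush AAV-null values and of the fit over all 15 libraries. The 7 skeletal muscle genes summed to 10.02, 13.4, 19.9, 45.97 and 4.39 CPM in crush AAV-CNTF replicates 2 to 6 and to 50.3, 46.1, 21.6, 216 and 46.2 CPM in sham replicates 2 to 6.

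Of 14194 genes tested with edgeR's quasi-likelihood test, 4437 (31.3%) passed a Benjamini-Hochberg adjusted p of 0.05, a threshold used throughout. With crush and AAV-CNTF, 2406 genes (17.0%) were higher than in sham and 2031 (14.3%) were lower. These shares are the background for each list count below. At least 2-fold changes past the threshold numbered 1198 higher (8.44%) and 643 lower (4.53%). All 5 crush libraries lay above all 5 sham libraries for 1682 genes (11.9%) and below them for 1584 (11.2%). The median log2 fold change over all genes was 0.01. Crush with AAV-null against the same sham libraries gave 2087 higher (14.7%) and 1825 lower (12.9%). The mean log2 CPM of the 7 muscle genes was also tried as a covariate. With it, 1696 genes were higher and 1350 lower, and 2948 of the 4437 calls remained in the same direction. Before centring, this covariate ran from -1.33 to 2.25 in crush AAV-CNTF and from 1.17 to 4.25 in sham. It differed in part with the groups, so what it removes cannot be told apart from part of the group difference, here and below.

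The 6 largest rises and falls were taken among called genes whose libraries did not overlap and whose mean reached 5 CPM. The lack of overlap of these genes thus follows from the choice. Kcnj15, an inwardly rectifying potassium channel subunit (chr16:95257558-95300260, mm10), stood at 6.65, 69.8, 44.5, 108 and 46.5 CPM in crush AAV-CNTF replicates 2 to 6 and at 0, 0, 2.14, 0 and 0.202 CPM in sham replicates 2 to 6. The groups did not overlap, and replicate 2 was the lowest crush library (log2 fold change 6.84 ± 0.94, adjusted p = 9.2e-06). Kif18b (chr11:102905529-102925124), a kinesin of the mitotic spindle, stood at 13.7, 9.82, 9.87, 9.61 and 10.5 CPM after crush and at 0, 0.554, 0, 0 and 0 CPM in sham. All crush libraries lay far above sham, where 1 of 5 libraries had a count (log2 fold change 6.51 ± 0.71, adjusted p = 5.9e-07). Tgm1, a transglutaminase that cross-links proteins, stood at 11.3, 11.9, 6.41, 7.29 and 12.7 CPM after crush and at 0, 0, 0.233, 0.0536 and 0.364 CPM in sham. Every crush library was again above every sham library (log2 fold change 6.14 ± 0.73, adjusted p = 1.7e-06). The tetraspanin Tspan11 (log2 fold change 6.01 ± 1.10), the histone gene Hist1h2bk (5.91 ± 0.80) and the secreted protein gene Crispld1 (5.26 ± 0.77) completed the 6 largest rises. Their adjusted p were 0.00023, 7.9e-06 and 1.9e-05. Kcnj15, Tspan11 and Crispld1 were all lowest in crush AAV-CNTF replicate 2 and highest in replicate 5, and all 3 calls were lost with limma-voom and sample quality weights. The log2 fold change was 9.76 for Kcnj15 without sham replicate 4, and 6.99 for Tgm1 and 7.51 for Tspan11 without sham replicate 6. Without sham replicate 3 for Kif18b or sham replicate 6 for Hist1h2bk, no sham count was left.

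Most of the 6 largest falls were genes known from neurons. Unc13c (chr9:73479422-73968966), a priming factor of synaptic vesicles, stood at 16.7, 19.98, 31.3, 14.6 and 17.01 CPM after crush and at 2811, 2195, 2254, 3833 and 2700.4 CPM in sham. The groups were far apart, with every sham library above 2000 CPM (log2 fold change -7.11 ± 0.29, adjusted p = 8.8e-13). Sptbn4, the beta-IV spectrin that anchors ion channels where axons fire, stood at 0.601, 1.55, 1.59, 2.20 and 2.32 CPM after crush and at 261, 168, 205, 298 and 185 CPM in sham. The highest crush library stayed far below the lowest sham library (log2 fold change -7.08 ± 0.38, adjusted p = 9.8e-11). Cacng3, a subunit that traffics AMPA receptors, stood at 0, 0, 0, 0.760 and 0 CPM after crush and at 27.7, 14.4, 23.04, 34.5 and 31.7 CPM in sham. It had counts in 1 of 5 crush libraries, replicate 5, without which no crush count was left (log2 fold change -7.41 ± 1.10, adjusted p = 2.2e-05). The neuronal vesicle protein gene Nrsn1 (log2 fold change -6.57 ± 0.50), Vwa5b2 (-6.09 ± 0.79) and Rph3a (-5.68 ± 0.33), a Rab effector of synaptic vesicles, also fell.

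**Figure D1:**
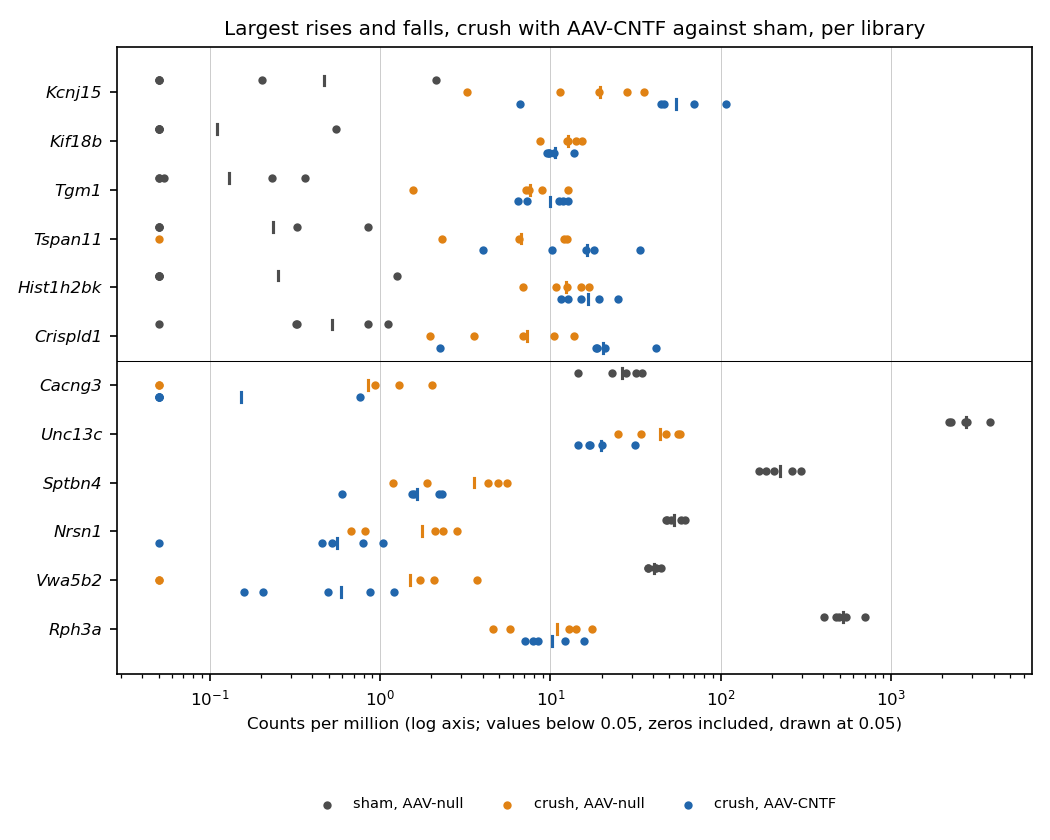
CPM (log axis) of the 6 genes with the largest rises (above the line) and the 6 with the largest falls (below it); points are libraries, vertical ticks are group means, and values under 0.05 are drawn at 0.05. Orange points are crush with AAV-null. For each of these genes the 5 crush AAV-CNTF libraries (blue) lie wholly on one side of the 5 sham libraries (grey).

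Of 18 axonal and neuronal transcripts tested, 11 were lower and 2 higher with crush and AAV-CNTF, with a median log2 fold change of -3.31 against 0.01 over all genes. In bulk tissue, fewer cells of a type and less RNA per cell cannot be told apart, here and below. The neurofilament heavy chain gene Nefh, which sets axon calibre, stood at 0.921, 2.40, 1.97, 1.18 and 4.15 CPM after crush and at 77.4, 72.2, 82.7, 94.7 and 83.2 CPM in sham. No library overlapped (log2 fold change -5.27 ± 0.54, adjusted p = 2.5e-07). The light chain gene Nefl stood at 0.681, 1.17, 0, 1.10 and 0 CPM after crush, with 2 libraries at 0, and at 34.01, 31.6, 31.1, 25.4 and 30.4 CPM in sham (log2 fold change -5.68 ± 0.86, adjusted p = 2.8e-05). The medium chain Nefm (log2 fold change -3.78 ± 0.76) and alpha-internexin Ina (-2.83 ± 0.74) fell as well. The SNARE protein gene Snap25 averaged 26.6 ± 4.30 CPM in sham and 1.58 ± 1.26 CPM after crush (log2 fold change -4.07 ± 0.53). Among genes of restricted neuron classes, the calcium-binding protein Calb2 and the calmodulin regulator Pcp4 fell from 8.46 and 7.14 CPM to 0.0958 and 0.131 CPM on average.

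Not every gene of that list fell. Stmn2, a microtubule regulator of growing axons, stood at 15.7, 12.9, 15.7, 7.33 and 11.5 CPM after crush and at 1.96, 2.86, 1.12, 1.45 and 1.13 CPM in sham. It was higher in all crush libraries than in any sham library (log2 fold change 2.89 ± 0.38, adjusted p = 6.0e-06). Thy1, a surface glycoprotein of neurons and also of fibroblasts and T cells, stood at 56.8, 61.4, 72.5, 74.5 and 29.1 CPM after crush and at 22.5, 26.5, 27.5, 18.1 and 18.6 CPM in sham (log2 fold change 1.38 ± 0.20, adjusted p = 2.1e-05). Gap43, a growth cone protein that glia also make, averaged 24.7 ± 6.84 CPM after crush and 17.2 ± 1.24 CPM in sham and did not pass the test (adjusted p = 0.0888). Its 95% interval on the log2 scale, which like all intervals here is not adjusted for the number of genes, was 0.03 to 1.01, and without crush AAV-CNTF replicate 4 it passed at a log2 fold change of 0.66 (adjusted p = 0.0236). The neuronal tubulin Tubb3 had a log2 fold change of -0.13 with an interval of -0.51 to 0.24.

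**Figure D2:**
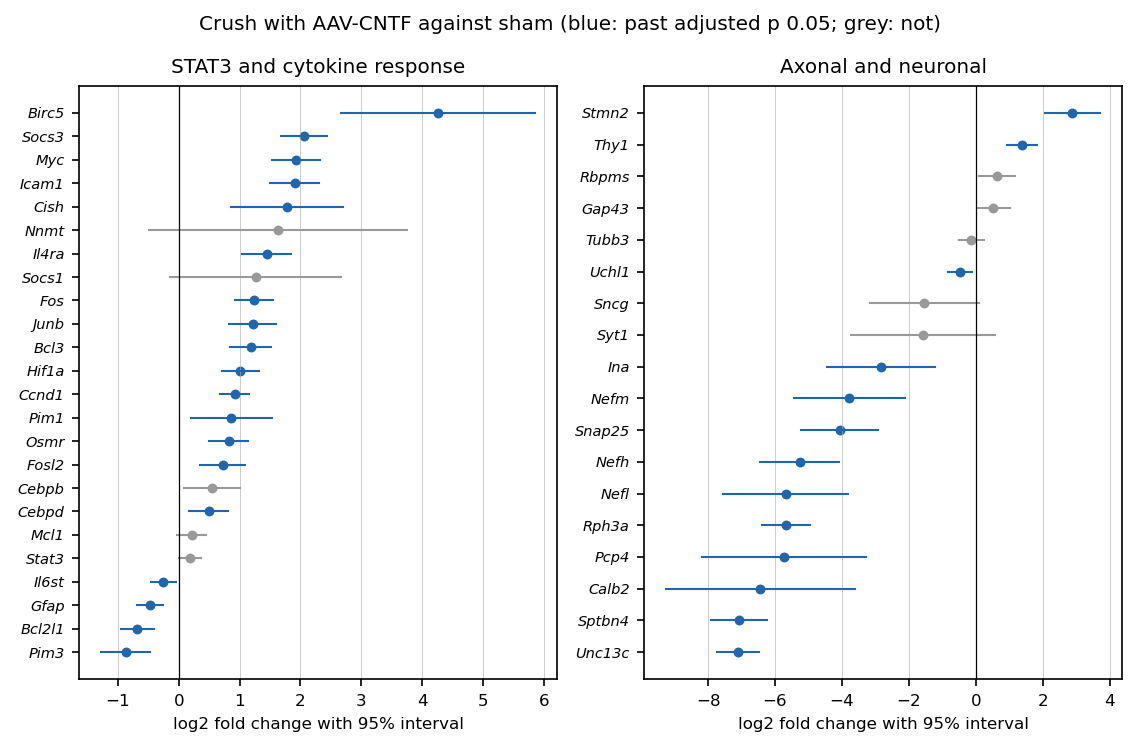
Log2 fold changes of crush with AAV-CNTF against sham with 95% intervals (horizontal lines) for STAT3 and cytokine response genes (left) and axonal and neuronal transcripts (right); blue marks genes past the threshold and grey those that were not. Socs3 and Myc lie near 2 on the left, and Unc13c and Sptbn4 lie near -7 on the right.

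Among 24 STAT3 and cytokine response genes, 15 were higher and 4 lower, with a median log2 fold change of 0.97. Crush with AAV-null against the same sham libraries gave 13 higher and 4 lower, with a median of 0.57. Directly between the crush groups, 0 of the 24 passed. Socs3 (chr11:117966079-117970047), the feedback inhibitor of gp130 receptors, stood at 85.8, 106, 87.5, 88.8 and 76.4 CPM after crush with AAV-CNTF and at 15.5, 24.04, 20.9, 21.9 and 24.6 CPM in sham. Every crush library was at least 3-fold above every sham library (log2 fold change 2.05 ± 0.17, adjusted p = 2.6e-08). Crush with AAV-null gave 49.3, 47.7, 35.3, 53.2 and 76.05 CPM, which lay between sham and the CNTF group without overlap, by a small margin for the highest library (log2 fold change of CNTF over null 0.76, adjusted p = 0.0788). Myc, a growth-promoting transcription factor, stood at 42.5, 52.5, 37.3, 45.4 and 44.8 CPM after crush and at 8.97, 13.2, 11.4, 11.9 and 13.2 CPM in sham (log2 fold change 1.92 ± 0.18, adjusted p = 8.5e-08). Icam1, an adhesion molecule for leukocytes, rose by a log2 fold change of 1.90 ± 0.18 from 14.1 CPM, and the cytokine feedback gene Cish by 1.79 ± 0.42 from 3.05 CPM. The cell cycle gene Ccnd1 (0.92 ± 0.11), the hypoxia factor Hif1a (1.01 ± 0.14), the NF-kB partner Bcl3 (1.18 ± 0.16) and the interleukin-4 receptor chain Il4ra (1.44 ± 0.19) were higher too.

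The 4 lower genes of the list were Gfap, Il6st, the survival gene Bcl2l1 and the kinase gene Pim3. Gfap, the astrocyte intermediate filament, stood at 3239.8, 2975, 3443, 2785 and 3020.2 CPM after crush and at 4320.4, 4104, 4374, 4049 and 4645 CPM in sham. All crush libraries lay below all sham libraries (log2 fold change -0.47 ± 0.10, adjusted p = 0.00080), and crush with AAV-null gave a log2 fold change of -0.48. Bcl2l1, which blocks apoptosis, averaged 168 ± 22.7 CPM in sham and 105 ± 16.2 CPM after crush (log2 fold change -0.68 ± 0.12, adjusted p = 0.00020). Stat3 itself stood at 217, 207, 249, 214 and 207 CPM after crush and at 198, 194, 199.7, 184 and 187 CPM in sham. The crush libraries all lay above the sham libraries, by little, and the gene did not pass (log2 fold change 0.18, interval 0.01 to 0.36, adjusted p = 0.0949).

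The sequence before the RefSeq start of Socs3 is shown because STAT dimers bind palindromes of the form TTCNNNGAA. GENCODE M21 places the gene at chr11:117966079-117970047 on the minus strand. The printed stretch thus lies within the gene by that annotation, downstream of the start given there. The 170 bases before the RefSeq start (GRCm38.p6, chr11:117969367-117969536, minus strand, 5′ to 3′) hold one match, in capitals, 154 to 146 bases before the start.
Socs3: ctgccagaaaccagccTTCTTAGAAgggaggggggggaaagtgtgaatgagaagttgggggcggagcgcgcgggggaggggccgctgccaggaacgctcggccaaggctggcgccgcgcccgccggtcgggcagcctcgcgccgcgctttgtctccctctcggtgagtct
Searched on both strands in the 250 bases before the start, TTCNNNGAA was present for 2 of the 20 list genes with a promoter entry, Icam1 and Socs3, and for 8.13% of 27025 genes. The list as a whole had a share close to that of all genes in this window.

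The receptor chains of CNTF were lower, and the receptors Osmr and Il6ra of related cytokines were higher. Of 17 cytokines, receptors and kinases of the family, 6 were higher and 4 lower. Cntfr, the CNTF-binding chain, stood at 86.5, 60.4, 49.2, 54.8 and 80.1 CPM after crush and at 129, 95.2, 130.3, 127 and 133 CPM in sham, where replicate 3 was the lowest. The groups did not overlap (log2 fold change -0.89 ± 0.18, adjusted p = 0.00052). Lifr, the second chain, stood at 84.97, 99.7, 102, 108 and 93.98 CPM after crush and at 132, 117, 119, 104 and 136 CPM in sham. These ranges overlapped (log2 fold change -0.32 ± 0.10, adjusted p = 0.0203). The third chain, Il6st, had a log2 fold change of -0.25 ± 0.09 (adjusted p = 0.0464), close to the threshold. The call of Lifr was lost without crush AAV-CNTF replicate 2 or sham replicate 2 or 6 (adjusted p from 0.052 to 0.061). That of Il6st was lost without any 1 of the 10 libraries other than crush AAV-CNTF replicates 4 and 5 and sham replicate 5 (0.069 to 0.12), and with only the 10 libraries compared or with the muscle covariate (0.064 and 0.22). The covariate also ended the call of Lifr (adjusted p = 0.17). The list then held 2 lower genes without crush AAV-CNTF replicate 2 or sham replicate 2 or 6. By level per length, the crush AAV-CNTF nerve held 86.3 ± 11.4 FPKM of Il6st (fragments scaled by transcript length and depth), 41.9 ± 9.82 of Cntfr and 14.7 ± 1.80 of Lifr (mean ± SD, n = 5).

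Osmr, the oncostatin M receptor, stood at 156, 129, 179, 152 and 110.1 CPM after crush and at 67.9, 74.2, 95.7, 94.5 and 79.7 CPM in sham. No crush library reached down to the sham range (log2 fold change 0.82 ± 0.15, adjusted p = 0.00024). Il6ra, the interleukin-6 receptor, rose from 34.6 ± 5.59 to 52.3 ± 6.84 CPM (log2 fold change 0.60 ± 0.13), and the kinase gene Jak1 from 107 ± 10.2 to 144 ± 13.4 CPM (0.42 ± 0.10). Lif, a relative of CNTF, stood at 8.37, 4.50, 7.54, 7.29 and 6.83 CPM after crush and at 1.27, 1.2, 4.89, 0.429 and 0.0810 CPM in sham, where replicate 4 overlapped the crush range (log2 fold change 2.13 ± 0.66, adjusted p = 0.0166). For Lif the log2 fold change was 3.21 without sham replicate 4, and the call was lost with the muscle covariate (adjusted p = 0.073). The mouse Cntf gene (chr19:12763660-12765632) stood at 5.33, 4.50, 5.57, 4.37 and 8.42 CPM after crush with AAV-CNTF and at 24.5, 14.5, 11.7, 13.4 and 17.6 CPM in sham. It was lower in every crush library (log2 fold change -1.54 ± 0.42, adjusted p = 0.0080), and crush with AAV-null gave a log2 fold change of -1.63. Whether reads of the vector's Cntf would be counted under this gene was not given in the sources used here.

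Genes of antigen presentation were higher in full lists. All 9 MHC class II genes tested passed, with a median log2 fold change of 2.57, and all 13 MHC class I and peptide loading genes passed, with a median of 1.49. Crush with AAV-null against the same sham libraries gave 3 higher class II genes (median 1.00) and 2 higher class I genes (median 0.36). Directly between the crush groups, 2 class II genes and 1 class I gene passed, all higher with AAV-CNTF. Without crush AAV-CNTF replicate 4, 9 class II genes (median 2.03) and 12 class I genes (median 1.03) were higher than in sham.

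Cd74, the invariant chain that guides class II molecules, stood at 766, 439, 2039, 641 and 187 CPM after crush with AAV-CNTF and at 102, 114, 91.3, 211 and 105 CPM in sham. Replicate 4 was the highest by far, and replicate 6 fell inside the sham range (log2 fold change 2.71 ± 0.42, adjusted p = 3.7e-05; log2 fold change 2.03 without replicate 4). H2-Eb1, a class II beta chain, stood at 139, 76.7, 241, 128 and 41.5 CPM after crush and at 17.2, 27.6, 20.3, 35.9 and 17.9 CPM in sham. The groups did not overlap (log2 fold change 2.40 ± 0.33, adjusted p = 1.0e-05; 2.02 without replicate 4). H2-Aa and H2-Ab1, the chains of the I-A molecule, rose by log2 fold changes of 2.66 ± 0.34 and 2.80 ± 0.39, and H2-DMa, a peptide exchange factor, by 1.97 ± 0.23. Ciita, the class II transactivator, stood at 14.3, 7.97, 35.4, 14.7 and 3.99 CPM after crush and at 2.55, 2.63, 1.63, 1.39 and 2.10 CPM in sham (log2 fold change 2.89 ± 0.47, adjusted p = 6.8e-05). Its crush libraries all lay above sham, with replicate 6 the lowest of them.

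Among class I genes, B2m, the light chain shared by class I molecules, stood at 2679.8, 1789.7, 4524, 1582 and 1766 CPM after crush and at 847, 840.0, 1073, 767 and 601 CPM in sham. Every crush library was higher (log2 fold change 1.58 ± 0.22, adjusted p = 1.2e-05; 1.24 without replicate 4). H2-K1, a classical heavy chain, stood at 487, 341, 819.6, 352 and 322 CPM after crush and at 124, 179, 217, 189 and 116 CPM in sham (log2 fold change 1.49 ± 0.23, adjusted p = 2.9e-05). The non-classical H2-Q7 stood at 58.9, 40.6, 155, 34.6 and 26.1 CPM after crush, at 8.97, 13.2, 22.6, 22.5 and 7.77 CPM in sham and at 13.5, 4.36, 13.8, 9.25 and 6.70 CPM in crush with AAV-null. The crush AAV-CNTF libraries lay above all others (log2 fold change 2.07 ± 0.44, adjusted p = 0.00094; 1.42 without replicate 4). Reads of H2-Q7 can be shared with close relatives such as H2-Q6, so its count is uncertain. The peptide transporter Tap1 rose from 16.4 ± 4.25 to 66.1 ± 52.7 CPM (log2 fold change 2.01 ± 0.36, adjusted p = 0.00017; 1.38 without replicate 4).

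The H2-Eb1 promoter is shown as an example of the CCAAT box that class II promoters carry next to the start. The 170 bases before the RefSeq start (GRCm38.p6, chr17:34305697-34305866, plus strand) hold CCAAT once on each strand, in capitals (ATTGG is CCAAT on the other strand).
H2-Eb1: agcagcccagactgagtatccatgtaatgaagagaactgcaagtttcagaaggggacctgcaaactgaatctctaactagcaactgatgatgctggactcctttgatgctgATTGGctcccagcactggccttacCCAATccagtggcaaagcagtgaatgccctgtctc
CCAAT was found in the 250 bases before the start, on either strand, for 6 of 6 class II genes and 10 of 11 class I genes with an entry, and for 37.5% of all genes.

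Guanylate-binding proteins and immunity-related GTPases, interferon-induced enzymes of cell-autonomous defence, were higher for 13 of 14 genes, with a median of 1.61. Crush with AAV-null against the same sham libraries gave 0 higher and a median of -0.41. Directly between the crush groups, however, 0 of the 14 genes passed. None of the 14 had crush AAV-CNTF libraries wholly above sham, where 11.9% of all genes tested did, so for a list of this size the count is near that share. Gbp2 stood at 95.99, 72.8, 567, 128 and 46.6 CPM after crush and at 41.1, 70.00, 57.6, 35.98 and 27.1 CPM in sham. Replicate 4 was the highest, and replicate 6 lay inside the sham range (log2 fold change 1.98 ± 0.47, adjusted p = 0.0028). Without replicate 4, Gbp2 kept its call at a log2 fold change of 0.89 (adjusted p = 0.0112). Iigp1 stood at 39.9, 13.7, 444, 56.5 and 10.7 CPM after crush and at 2.21, 39.96, 5.63, 11.6 and 5.51 CPM in sham, with replicate 4 again highest in the first group and replicate 3 in the second (log2 fold change 3.12 ± 0.84, adjusted p = 0.0070). Without replicate 4 its call was lost (1.22, adjusted p = 0.138), 6 of the 14 genes were higher, and their median was 0.83. The call of Iigp1 was also lost with limma-voom and quality weights (adjusted p = 0.10), and its log2 fold change was 4.19 without sham replicate 3. The member that did not pass was Gbp9 (log2 fold change 0.47, interval -0.06 to 0.99), though it did with the muscle covariate (0.80, adjusted p = 0.048).

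Promoters of this family are shown because the interferon response element GAAA, spaced by 2 bases from a second GAAA, was found in all of its members with an entry. Igtp is given over chr11:58199386-58199555 (plus strand) and Gbp7 over chr3:142530166-142530335 (plus strand), both GRCm38.p6 and 170 bases before the RefSeq start.
Igtp: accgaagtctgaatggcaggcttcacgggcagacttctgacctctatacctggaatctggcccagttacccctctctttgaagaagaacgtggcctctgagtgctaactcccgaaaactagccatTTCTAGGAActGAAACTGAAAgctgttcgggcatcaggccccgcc
Gbp7: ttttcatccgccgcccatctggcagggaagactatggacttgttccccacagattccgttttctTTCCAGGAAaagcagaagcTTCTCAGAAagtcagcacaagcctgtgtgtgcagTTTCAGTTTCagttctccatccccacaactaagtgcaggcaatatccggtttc
Capitals mark this element in both, read on the other strand in Gbp7, and the TTCNNNGAA matches, which lie 45 to 37 bases before the start in Igtp and 106 to 98 and 87 to 79 in Gbp7. Igtp rose from 18.9 ± 12.8 to 69.9 ± 80.4 CPM (log2 fold change 1.89 ± 0.55, adjusted p = 0.0119) and Gbp7 from 34.5 ± 13.6 to 93.1 ± 82.6 CPM (log2 fold change 1.43 ± 0.37, adjusted p = 0.0056). The element was present for 9 of 9 genes of the family and for 3.46% of all genes, and TTCNNNGAA for 6 of 9 against 8.13%. A match describes the letters and does not show binding.

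Of 26 other interferon response genes, 7 were higher and 0 lower, with a median of 0.62. Without sham replicate 3, 10 were higher and 0 lower, with a median of 0.97. Irf1, a transcription factor that interferons induce, rose from 13.2 ± 4.24 to 38.01 ± 25.8 CPM (log2 fold change 1.53 ± 0.35, adjusted p = 0.0017; 1.04 without replicate 4). Irf8, a factor of myeloid cells, stood at 87.1, 66.7, 96.00, 60.3 and 77.6 CPM after crush and at 20.9, 22.3, 28.2, 22.3 and 17.7 CPM in sham. No libraries overlapped (log2 fold change 1.80 ± 0.16, adjusted p = 3.8e-08), and the log2 fold change was 1.71 without replicate 4.

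The RNA-binding antiviral genes Ifit1, Ifit2 and Ifit3 did not pass, with log2 fold changes of -0.37, -0.35 and -0.56 and intervals of -1.21 to 0.46, -0.75 to 0.05 and -1.46 to 0.34. Ifit1 stood at 23.9, 33.8, 59.9, 31.8 and 19.8 CPM after crush with AAV-CNTF, at 15.1, 23.1, 22.01, 14.3 and 11.3 CPM after crush with AAV-null and at 23.1, 106, 46.3, 23.01 and 21.1 CPM in sham. Sham replicate 3 was the highest of all, and without it the log2 fold changes were 0.25 for Ifit1 and 0.05 for Ifit3 (adjusted p = 0.59 and 0.94). Against sham, crush with AAV-null gave -1.36 (adjusted p = 0.0123) for Ifit1, and the direct difference of the crush groups did not pass (adjusted p = 0.510). Without crush AAV-CNTF replicate 4, 5 interferon genes were higher and 1 lower, Ifit2 (-0.53, adjusted p = 0.0260).

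Of 17 chemokines, 9 were higher. Cxcl9, the interferon gamma-induced attractant of T cells, stood at 55.1, 14.7, 648, 70.01 and 1.56 CPM after crush with AAV-CNTF and at 0, 2.49, 0.652, 0 and 0.0810 CPM in sham. Replicate 4 was the highest and replicate 6 lay within the sham range (log2 fold change 7.91 ± 1.36, adjusted p = 0.00012). Without replicate 4 the log2 fold change was 5.75 (adjusted p = 0.0010), and with limma-voom and quality weights the call was lost (adjusted p = 0.48). Without sham replicate 3 the log2 fold change of Cxcl9 was 9.68. Ccl6, a myeloid chemokine, stood at 99.5, 78.5, 88.2, 93.7 and 60.04 CPM after crush and at 13.4, 15, 17.1, 6.70 and 13.4 CPM in sham. The groups were far apart (log2 fold change 2.67 ± 0.22, adjusted p = 2.1e-08). The chemokine gene Cxcl16 rose from 28.9 ± 8.37 to 94.4 ± 13.2 CPM (log2 fold change 1.71 ± 0.17, adjusted p = 2.5e-07). The monocyte attractant Ccl2 (1.91 ± 0.54) and the T cell attractant Ccl5 (3.60 ± 0.77) were higher as well, from 3.32 and 1.73 CPM in sham. For Ccl5 the log2 fold change was 2.82 without crush AAV-CNTF replicate 4 and 4.39 without sham replicate 3.

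T and NK cell genes were measured beside these groups. Of 14 such genes, 10 had values, and they summed to 74.04, 32.8, 101, 34.00 and 32.5 CPM in crush AAV-CNTF replicates 2 to 6, to 19.5, 40.4, 15.4, 19.6 and 32.99 CPM in sham and to 22.6, 7.02, 19.7, 15.4 and 13.3 CPM in crush with AAV-null. The crush AAV-CNTF sum was highest in replicate 4 and next in replicate 2, and its other replicates fell within the sham range. The T cell receptor chain gene Cd3e passed in this list (log2 fold change 1.66 ± 0.60, adjusted p = 0.0397), with 19.6, 7.18, 18.1, 5.32 and 9.06 CPM after crush and 1.08, 7.24, 1.40, 4.02 and 4.98 CPM in sham, and lost its call without replicate 4 (adjusted p = 0.1000), without replicate 2 or without sham replicate 2, 4, 5 or 6 (0.051 to 0.11). Cd4 did not pass (log2 fold change 1.05, adjusted p = 0.0984) except without crush AAV-CNTF replicate 6 (1.28, adjusted p = 0.037) or sham replicate 3 (1.37, adjusted p = 0.044). The part of these cells in the interferon, MHC and chemokine results was not tested.

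**Figure D3:**
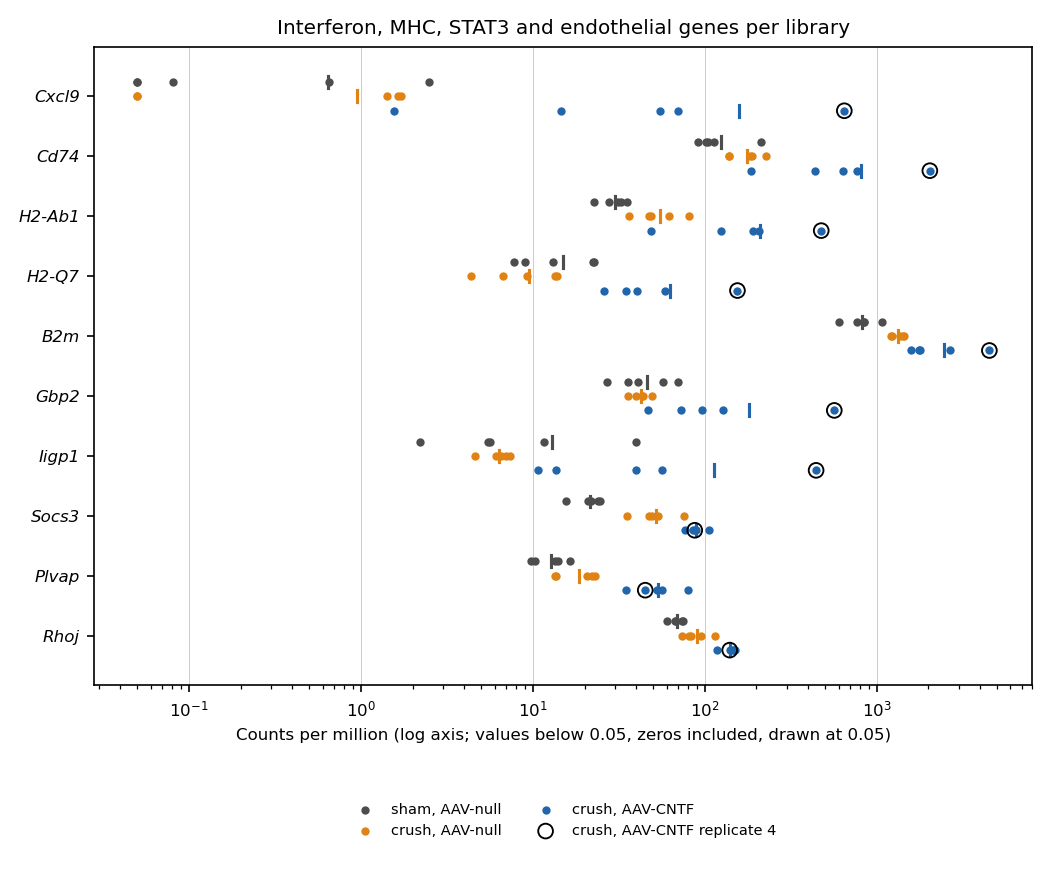
CPM (log axis) per library for interferon, MHC, STAT3 and endothelial genes in sham (grey), crush AAV-null (orange) and crush AAV-CNTF (blue); ticks are group means and circles mark crush AAV-CNTF replicate 4. Replicate 4 is the highest library for Cxcl9, Cd74, Gbp2 and Iigp1 but lies among its group for Socs3, Plvap and Rhoj.

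Most complement and phagocyte genes rose. Of 16 complement genes, 11 were higher and 1 lower. C1qb, a chain of the initiator C1q that tags debris, stood at 804, 679.6, 780.0, 511 and 744 CPM after crush and at 169, 177, 230.3, 143 and 177 CPM in sham. All crush libraries were more than 2-fold above sham (log2 fold change 1.97 ± 0.13, adjusted p = 1.9e-09). C3ar1, the receptor for the fragment C3a, stood at 123, 118, 109, 116 and 122 CPM after crush and at 12.01, 16.98, 23.4, 18.8 and 18.4 CPM in sham (log2 fold change 2.71 ± 0.18, adjusted p = 1.3e-09). The proteases C1ra (2.19 ± 0.42) and C1s1 (2.48 ± 0.44) and the inhibitor Serping1 (0.71 ± 0.14) were higher too. C4b, the next component of the cascade, fell from 1849.8 ± 109.7 to 1202 ± 96.2 CPM (log2 fold change -0.62 ± 0.10, adjusted p = 3.3e-05).

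C3, the component on which all complement pathways converge, stood at 506, 336, 674, 309 and 282 CPM after crush with AAV-CNTF, at 388, 342, 402, 312 and 379 CPM in sham and at 187, 182, 282, 167 and 219 CPM after crush with AAV-null. The crush AAV-CNTF and sham ranges overlapped (log2 fold change 0.21, interval -0.21 to 0.63, adjusted p = 0.458). Without replicate 4 the value was -0.02. The 5 crush AAV-null libraries were below all sham libraries, and the direct difference of the crush groups was 1.02 (adjusted p = 0.0516).

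Of 25 phagocyte and lipid-handling genes, 23 were higher, with a median of 2.02. Lyz2, lysozyme of myeloid cells, stood at 914, 719, 721, 594 and 633 CPM after crush and at 63.8, 65.5, 119.9, 72.6 and 49.3 CPM in sham. The groups did not come near each other (log2 fold change 3.27 ± 0.22, adjusted p = 1.8e-09). Ctsd, the lysosomal protease cathepsin D, stood at 3884, 4192, 3058, 2734 and 5022 CPM after crush and at 606, 639, 844, 497 and 528 CPM in sham (log2 fold change 2.60 ± 0.18, adjusted p = 1.8e-09). Gpnmb, a glycoprotein of lipid-laden phagocytes, stood at 689.8, 740.2, 407, 423 and 834 CPM after crush and at 98.6, 117, 137, 106 and 133 CPM in sham (log2 fold change 2.39 ± 0.22, adjusted p = 6.0e-08). The groups were distinct in both. Cd68 (2.59 ± 0.20), the lipase Lpl (3.11 ± 0.21), the lipid receptor Trem2 (1.96 ± 0.16) and the scavenger receptor Msr1 (2.81 ± 0.44) rose, while the cholesterol exporter Abcg1 (0.09) and the galectin Lgals3 (0.34) did not pass.

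Homeostatic microglia genes moved unevenly. Of 13, 9 were higher and 1 lower. Fcrls stood at 137, 177, 98.9, 155 and 169 CPM after crush and at 11.8, 17.6, 36.8, 20.1 and 17.2 CPM in sham, with no overlap (log2 fold change 2.83 ± 0.24, adjusted p = 2.8e-08). Olfml3, a secreted matrix protein of microglia, rose from 100 ± 16.6 to 246 ± 15.9 CPM (log2 fold change 1.30 ± 0.11, adjusted p = 1.9e-08), and the receptor genes Csf1r (1.04 ± 0.09) and Cx3cr1 (1.10 ± 0.13) rose too. P2ry12, the purinergic receptor of resting microglia, stood at 42.9 ± 8.49 CPM after crush and 48.2 ± 8.83 CPM in sham (log2 fold change -0.17, interval -0.50 to 0.17). Sall1, the transcription factor that maintains microglial identity and is also made by other glia, fell (-0.46 ± 0.13). Of 13 neutrophil genes, 3 had values and 2 rose, among them the growth factor receptor Csf3r (log2 fold change 1.24 ± 0.13, adjusted p = 5.0e-07). Those without values included S100a8, S100a9, Ly6g, Mpo and Elane, so the list does not show whether neutrophils were present.

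Iron and heme genes went both ways, 5 higher and 2 lower of 12, beside 17.0% higher and 14.3% lower over all genes tested. The heme oxygenase gene Hmox1 stood at 36.6, 45.8, 24.6, 33.2 and 53.02 CPM after crush and at 5.73, 5.58, 10.8, 7.94 and 7.85 CPM in sham (log2 fold change 2.35 ± 0.28, adjusted p = 2.0e-06). The phagosomal iron transporter Slc11a1 (1.88 ± 0.19) and the ferritin light chain Ftl1 (1.39 ± 0.15) rose. The ferritin heavy chain Fth1, by contrast, fell from 7558 ± 674 to 5082 ± 815 CPM (log2 fold change -0.57 ± 0.14, adjusted p = 0.0025), and the transferrin receptor Tfrc fell (log2 fold change -0.54), a call that was lost without crush AAV-CNTF replicate 3 or sham replicate 2 (adjusted p = 0.057 for each) and with the muscle covariate (0.22).

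All 25 cell division genes were higher, with a median log2 fold change of 3.10, and crush with AAV-null gave 25 higher with a median of 3.2. Top2a, the topoisomerase of dividing cells, stood at 64.3, 62.8, 79.97, 80.2 and 71.7 CPM after crush and at 1.62, 2.40, 6.79, 4.18 and 4.61 CPM in sham. Crush libraries were narrow in range and all far above sham (log2 fold change 4.19 ± 0.26, adjusted p = 5.6e-10). Mki67, the proliferation marker Ki-67, stood at 164, 141, 223, 172 and 141 CPM after crush and at 8.97, 14.3, 16.6, 8.85 and 17.9 CPM in sham (log2 fold change 3.65 ± 0.20, adjusted p = 1.3e-10). Kif2c, a kinesin of the kinetochore, averaged 7.31 ± 1.08 CPM after crush and had no count in the 5 sham libraries, so it was at least 260.4-fold higher against a floor of 3 counts over the group. The fitted value of Kif2c depends on the prior count, and with Kif2c at that bound the median of the list was the same. The replication gene Pcna changed least (0.66 ± 0.13), from a sham level of 46.7 CPM.

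The Top2a promoter is shown because most cell division genes with an entry held CCAAT. The 170 bases before its RefSeq start (GRCm38.p6, chr11:99024190-99024359, minus strand) hold 4 matches, in capitals, on both strands.
Top2a: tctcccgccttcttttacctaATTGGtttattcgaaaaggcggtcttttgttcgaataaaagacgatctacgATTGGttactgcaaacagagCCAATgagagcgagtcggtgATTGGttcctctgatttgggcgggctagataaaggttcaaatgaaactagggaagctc
CCAAT was present for 18 of 21 cell division genes with an entry, against 37.5% of all genes.

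Myelin genes fell together. Of 20 genes of mature oligodendrocytes, 19 were lower and 0 higher, with a median of -1.21, and the exception was the transferrin gene Trf (log2 fold change -0.10). Gpr37, a receptor of myelinating cells, stood at 153, 167, 149, 118 and 152 CPM after crush and at 474, 417, 354, 382 and 454 CPM in sham. The highest crush library was more than 2-fold below the lowest sham library (log2 fold change -1.49 ± 0.10, adjusted p = 1.9e-09). Fa2h, which makes the hydroxylated lipids of myelin, stood at 232, 174, 219, 146 and 211 CPM after crush and at 676, 671, 530.5, 599.8 and 701 CPM in sham (log2 fold change -1.69 ± 0.13, adjusted p = 6.4e-09). Mbp, a major protein of compact myelin, stood at 12854, 11427, 9484, 8865 and 13002 CPM after crush and at 32048, 28968, 26455, 29061 and 34063 CPM in sham, again with no overlap (log2 fold change -1.44 ± 0.13, adjusted p = 6.5e-08). Mobp, another myelin protein, fell (-1.72 ± 0.13), and the tight junction gene Cldn11 fell least of the called members (-0.35 ± 0.10). Crush with AAV-null gave 19 lower genes and a median of -0.95.

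Genes of NG2 glia went both ways. Of 18, 6 were higher and 5 lower, with a median of 0.03, a sign that differed between the settings tried. The 4 proteoglycan and matrix genes Cspg4, Vcan, Ncan and Tnr were among the higher ones. Cspg4, the NG2 protein, stood at 126, 142, 91.8, 105 and 143 CPM after crush with AAV-CNTF, at 58.1, 70.5, 74.98, 58.3 and 59.7 CPM in sham and at 143, 199.7, 149, 153 and 173 CPM after crush with AAV-null. Both crush groups lay above sham (log2 fold change 0.92 ± 0.13, adjusted p = 1.5e-05 for CNTF). The difference between the crush groups had a log2 fold change of -0.43 (interval -0.71 to -0.15, adjusted p = 0.289). Vcan, versican, rose from 137 ± 26.99 to 284 ± 27.9 CPM (log2 fold change 1.05 ± 0.11, adjusted p = 5.7e-07), and Ncan, neurocan, from 29.4 ± 3.52 to 98.8 ± 31.9 CPM (log2 fold change 1.75 ± 0.21, adjusted p = 2.0e-06). The lineage factor Olig2 fell (-0.57 ± 0.13), and Bcas1, a marker of oligodendrocytes that begin to myelinate, fell from 1671 ± 166 to 658 ± 87.1 CPM (log2 fold change -1.35 ± 0.12, adjusted p = 6.4e-08). The growth factor receptor Pdgfra did not pass (log2 fold change -0.24, interval -0.45 to -0.03) except without sham replicate 4 (-0.29, adjusted p = 0.032) and with upper quartile scaling (-0.28, adjusted p = 0.033).

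Cholesterol synthesis, which supplies myelin membrane, fell with the myelin genes: 19 of 22 genes were lower and 0 higher, with a median of -1.14. Hmgcs1, which commits acetyl units to the pathway, stood at 158, 128, 136, 100.5 and 144 CPM after crush and at 496, 428, 354, 328 and 473 CPM in sham. All crush libraries were more than 2-fold below any sham library (log2 fold change -1.64 ± 0.14, adjusted p = 2.4e-08). The feedback gene Insig1, a target of the sterol-sensing factor SREBP2, fell as well (-1.85 ± 0.22), and Ebp (-0.12), Hsd17b7 (-0.40) and Tm7sf2 (-0.73) did not pass.

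The Hmgcs1 promoter is shown with the sterol-type element TCACNCCAC and a CCAAT box, in capitals, within 170 bases before the RefSeq start (GRCm38.p6, chr13:119690181-119690350, plus strand).
Hmgcs1: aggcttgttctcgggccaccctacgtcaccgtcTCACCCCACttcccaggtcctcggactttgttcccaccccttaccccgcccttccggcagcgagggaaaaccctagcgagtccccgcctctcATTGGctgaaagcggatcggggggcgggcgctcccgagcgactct
CCAAT was present for 16 of 16 cholesterol genes with an entry and for 37.5% of all genes, while TCACNCCAC was present for 1 of those 16, Hmgcs1 itself, and for 1.22% of all genes.

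Astrocyte genes were lower for 12 of 18, with a median of -0.49 and none higher. Kcnj10, the potassium channel that clears potassium around axons, stood at 512, 431, 489, 394 and 453 CPM after crush and at 868, 772, 752, 686 and 796 CPM in sham, without overlap (log2 fold change -0.77 ± 0.10, adjusted p = 4.0e-06). S100b, a calcium-binding protein of glia, stood at 354, 299.7, 278, 240.1 and 315 CPM after crush and at 643, 596, 568, 591 and 662 CPM in sham (log2 fold change -1.04 ± 0.12, adjusted p = 1.8e-06), and the water channel gene Aqp4 fell from 695 ± 52.8 to 438 ± 61.7 CPM (log2 fold change -0.67 ± 0.12, adjusted p = 0.00025). The glutamate transporters Slc1a2 and Slc1a3 did not pass, with log2 fold changes of -0.23 (interval -0.48 to 0.02) and -0.31 (interval -0.57 to -0.05). Slc1a3 passed without crush AAV-CNTF replicate 2 (-0.35, adjusted p = 0.043), sham replicate 3 (-0.36, 0.039) or crush AAV-CNTF replicate 4 (-0.38, adjusted p = 0.0267). It also passed with DESeq2, limma-voom, upper quartile scaling, a replicate block and only the 10 libraries compared (-0.31 to -0.35, adjusted p from 0.015 to 0.037). The pan-astrocyte genes Aldh1l1 (0.08) and Cst3 (0.15) did not pass either.

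Reactive astrocyte genes moved the other way: 13 of 20 were higher and 1, Gfap, was lower. Timp1, the metalloprotease inhibitor, stood at 89.6, 75.7, 83.1, 62.3 and 72.1 CPM after crush and at 13.5, 14.3, 12.7, 11.9 and 8.38 CPM in sham. The groups were far apart (log2 fold change 2.66 ± 0.15, adjusted p = 1.3e-10). Cd44, the hyaluronan receptor, rose from 141 ± 23.1 to 283 ± 29.2 CPM (log2 fold change 1.00 ± 0.11, adjusted p = 8.2e-07). Serpina3n, a protease inhibitor that STAT3 is known to induce, stood at 2741, 2068, 1938, 1477 and 1916 CPM after crush and at 700.1, 825, 1048, 618 and 854 CPM in sham (log2 fold change 1.33 ± 0.16, adjusted p = 1.6e-06). Lcn2, lipocalin-2, rose from 2.35 ± 1.18 to 13.7 ± 6.30 CPM (2.54 ± 0.40), and the filament gene Vim by 0.32 ± 0.10. Several of these genes are also made by fibroblasts and phagocytes.

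Scar matrix genes of fibroblasts were higher for 17 of 18, with a median of 1.83. Col1a1, the main chain of type I collagen, stood at 1721, 3734, 3269, 4409 and 2038 CPM after crush and at 479.8, 749, 928, 554 and 372 CPM in sham. The groups did not overlap, with crush replicates 2 and 6 the lowest of their group (log2 fold change 2.30 ± 0.26, adjusted p = 7.9e-07). Tnc, tenascin C, stood at 134, 202, 181, 205 and 109 CPM after crush and at 29.9, 22.01, 43.5, 15.1 and 7.29 CPM in sham (log2 fold change 2.82 ± 0.31, adjusted p = 6.6e-07). Col3a1 (2.48 ± 0.33), periostin Postn (2.66 ± 0.31), thrombospondin Thbs1 (2.77 ± 0.34) and fibronectin Fn1 (1.94 ± 0.32) also rose, and Pdgfrb (0.41) did not pass. Meningeal and sheath genes went both ways beside them. The matrix proteoglycan Bgn rose from 223 ± 65.5 to 909.7 ± 376 CPM (log2 fold change 2.03 ± 0.25, adjusted p = 2.3e-06), and the prostaglandin synthase Ptgds, abundant in meninges and oligodendrocytes, fell from 2274 ± 1057 to 556 ± 190.1 CPM (log2 fold change -2.03 ± 0.29, adjusted p = 1.7e-05). Of the 9 meningeal genes 4 were higher and 2 lower. Without crush AAV-CNTF replicate 3, 2 were higher, and without sham replicate 6, 4 were lower. They summed to 1028, 1657, 2135, 2324 and 1427 CPM after crush and to 3357, 3304, 3898, 1919 and 1092 CPM in sham, and their part in the matrix result was not tested.

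Of 15 factors that support axon growth, 11 were higher and 3 lower. Spp1, osteopontin, stood at 540.4, 718, 257, 443 and 815 CPM after crush and at 17.1, 18.2, 37.3, 10.6 and 24.7 CPM in sham. The lowest crush library, replicate 4, was still far above sham (log2 fold change 4.68 ± 0.39, adjusted p = 1.9e-08). Igf1, insulin-like growth factor 1, stood at 137, 143, 107, 179.7 and 133 CPM after crush and at 4.66, 7.38, 14.1, 11.8 and 3.97 CPM in sham (log2 fold change 4.07 ± 0.30, adjusted p = 5.5e-09). Both are also made by lipid-handling microglia and macrophages. The growth factor gene Hgf (3.18 ± 0.70) rose from a sham level of 0.658 CPM, and Igf2 from 347 ± 136 to 952 ± 455 CPM (log2 fold change 1.46 ± 0.33, adjusted p = 0.0019). Besides Cntf, the laminin chain Lama1 (-1.16 ± 0.23) and the adhesion molecule Ncam1 (-0.41 ± 0.11) fell.

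Inhibitors of axon growth went both ways. Of 17, 5 were higher and 6 lower. Efnb3, an ephrin of oligodendrocytes, stood at 128, 124, 109, 107 and 150.3 CPM after crush and at 397, 364, 294, 306 and 411 CPM in sham, without overlap (log2 fold change -1.52 ± 0.13, adjusted p = 4.2e-08). The myelin inhibitors Omg (-1.45 ± 0.17) and Mag (-0.74 ± 0.12) and the semaphorin Sema6a (-0.99 ± 0.12) fell too, while Rtn4, which codes for Nogo, did not pass (-0.23). The higher members were the proteoglycans and matrix genes named with NG2 glia and the chain-starting enzyme gene Xylt1 (0.42 ± 0.12).

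Among 16 endothelial genes, 4 were higher and 2 lower, beside shares of 17.0% higher and 14.3% lower over all genes tested. Plvap (chr8:71497765-71511752), the diaphragm protein of permeable capillaries, stood at 79.6, 34.9, 45.1, 56.1 and 53.02 CPM after crush with AAV-CNTF, at 14.1, 13.4, 16.5, 9.81 and 10.3 CPM in sham and at 22.9, 13.7, 22.1, 20.8 and 13.5 CPM after crush with AAV-null. All 5 CNTF libraries lay above the 10 others (log2 fold change 2.07 ± 0.22, adjusted p = 5.3e-07). Directly against crush with AAV-null the log2 fold change was 1.53 (adjusted p = 0.0127), and 1.59 (adjusted p = 0.0196) without replicate 4. Rhoj (chr12:75308322-75401456), a small GTPase of endothelial cells that is outside the list, stood at 146, 148, 139.8, 118 and 149.8 CPM, 75.2, 60.6, 73.8, 68.00 and 67.1 CPM and 94.7, 83.1, 74.3, 81.2 and 115 CPM in the same order. Again the CNTF libraries were the 5 highest (log2 fold change 1.03 ± 0.12, adjusted p = 8.2e-07; 0.65 against crush with AAV-null, adjusted p = 0.0368). Without replicate 4 the call of Rhoj against crush with AAV-null was lost (adjusted p = 0.0835). Cdh5, the junction cadherin of vessels, rose by 1.31 ± 0.24, and the glucose transporter of the blood-brain barrier, Slc2a1, fell from 211 ± 11.7 to 104 ± 12.97 CPM (log2 fold change -1.02 ± 0.10, adjusted p = 9.2e-08). Of 11 pericyte and smooth muscle genes 4 rose, led by the peptidase Anpep (log2 fold change 1.91 ± 0.17, adjusted p = 6.4e-08) and the actin gene Acta2 (1.65 ± 0.41). Without crush AAV-CNTF replicate 3 or 5 or sham replicate 2, 2 of these 11 genes rose, which is near the 17.0% share over all genes tested.

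The direct comparison of the crush groups called 8 genes, with 6 higher and 2 lower in crush with AAV-CNTF than in crush with AAV-null (0.0564% of the genes tested, 0.0423% higher and 0.0141% lower). The higher ones were Cd74, Cxcl9, H2-Eb1, H2-Q7, Plvap and Rhoj, given above. The 2 lower ones moved in opposite directions against sham. Fyn, a Src family kinase of oligodendrocytes and T cells, stood at 128, 106, 103, 105 and 112 CPM with AAV-CNTF, at 159, 152, 171, 167 and 154 CPM with AAV-null and at 89.9, 90.5, 91.96, 81.1 and 98.1 CPM in sham. Its CNTF level lay between the other groups (log2 fold change 0.30 ± 0.09, adjusted p = 0.0121 against sham; -0.53 against crush with AAV-null, adjusted p = 0.0261). With the muscle covariate its call against sham was lost (0.24, adjusted p = 0.13). Tmem132b stood at 32.7, 30.8, 23.8, 23.5 and 34.7 CPM with AAV-CNTF, at 44.9, 51.9, 47.99, 53.9 and 63.2 CPM with AAV-null and at 51.6, 45.2, 59.99, 52.9 and 63.6 CPM in sham. Its CNTF libraries lay below all others (log2 fold change -0.91 ± 0.14, adjusted p = 4.2e-05 against sham; -0.85 against crush with AAV-null, adjusted p = 0.0261). The number of calls was 1 without crush AAV-null replicate 2 or 4, 2 without crush AAV-CNTF replicate 4, and 41 without crush AAV-CNTF replicate 6. Of the 8 genes, only Plvap passed without crush AAV-CNTF replicate 4, and the other call was Unc13c (-1.37, adjusted p = 0.0232). The log2 fold changes of Cxcl9, H2-Q7, Cd74 and H2-Eb1 between the crush groups were then 5.23, 2.07, 1.54 and 1.37 (adjusted p from 0.0631 to 0.168), and Fyn and Tmem132b each had an adjusted p of 0.0812. An unadjusted p under 0.05 was reached by 1091 genes in this comparison, and by 5717 in that with sham.

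Of 13 mRNAs encoded in mitochondria 10 were lower, with a median of -0.68. The complex I gene mt-Nd1 stood at 5653, 4231, 6047, 4614 and 4439 CPM after crush and at 12021, 10711, 11276, 12442 and 11236 CPM in sham, with no overlap (log2 fold change -1.21 ± 0.11, adjusted p = 6.4e-08), and mt-Co2, a cytochrome oxidase subunit, fell from 2067 ± 441 to 572 ± 178 CPM (log2 fold change -1.85 ± 0.19, adjusted p = 2.3e-07). Of 25 nuclear genes of the respiratory chain, 2 were higher and 1, Sdha (-0.38 ± 0.09), was lower. Both shares lay below the background of 17.0% higher and 14.3% lower over all genes tested, which applies to the next lists too. In glycolysis 5 of 19 genes were higher, among them the hexokinase Hk2 (log2 fold change 1.02 ± 0.15, adjusted p = 2.5e-05) and the lactate exporter Slc16a3 (1.28 ± 0.32), and 4 lower. Of 22 cytosolic ribosomal protein genes 7 rose, Rpl4 by 0.38 ± 0.08 and Rpl7 by 0.36 ± 0.09, and 4 rose without crush AAV-CNTF replicate 3 or sham replicate 5.

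Chaperone and unfolded protein response genes were higher for 12 of 22 and lower for none, with a median of 0.43. The endoplasmic reticulum chaperone Calr stood at 486, 569.6, 698, 579 and 511 CPM after crush and at 339.8, 311, 322, 316 and 271 CPM in sham, without overlap (log2 fold change 0.87 ± 0.10, adjusted p = 8.7e-07). Sdf2l1, a partner of that folding machinery, rose from 20.04 ± 2.85 to 44.8 ± 3.63 CPM (log2 fold change 1.16 ± 0.16, adjusted p = 1.3e-05), and Hspa5, its central chaperone, from 221 ± 23.7 to 329 ± 41.5 CPM (log2 fold change 0.57 ± 0.10, adjusted p = 0.00019). The cytosolic heat shock genes Hspa1a (-0.42), Hsp90aa1 (-0.16) and Hsp90ab1 (-0.15) did not pass. The endoplasmic reticulum stress element, CCAAT spaced by 9 bases from CCACG, was present for 5 of 18 list genes with an entry (Calr, Creld2, Hsp90b1, Hspa5 and Pdia6) and for 0.13% of all genes. Among 16 early transcription factor genes 6 were higher, Fos from 27.2 ± 1.90 to 64.3 ± 9.36 CPM (log2 fold change 1.24 ± 0.14, adjusted p = 9.1e-07) and Junb from 25.7 ± 6.21 to 59.6 ± 6.71 CPM (log2 fold change 1.22 ± 0.18, adjusted p = 2.0e-05), while Jun (-0.06) did not pass.

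**Figure D4:**
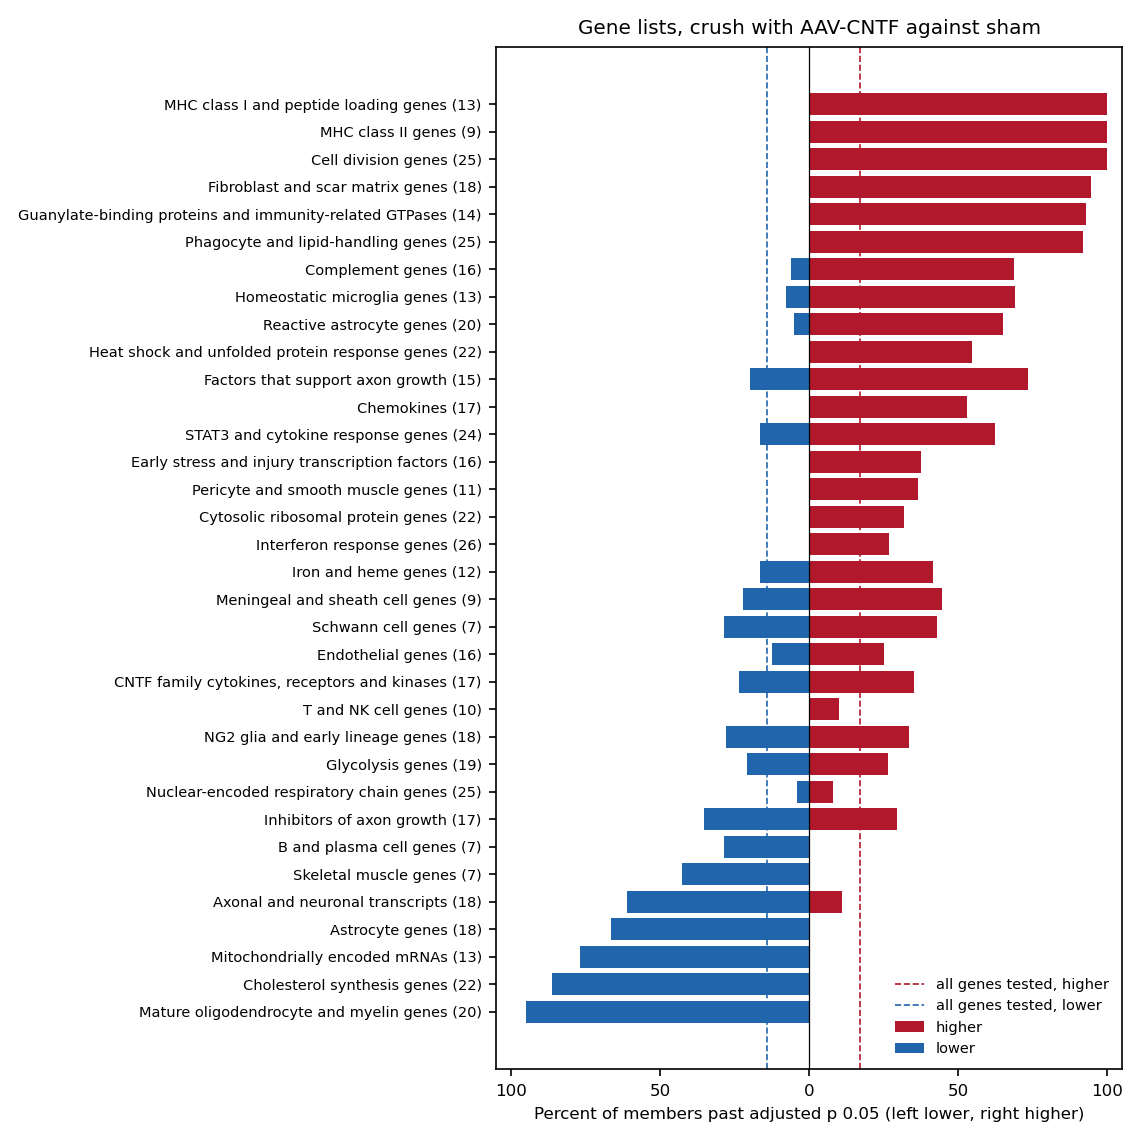
Percent of the tested members of each list (number tested in brackets) that were higher (red, right) or lower (blue, left) past the threshold with crush and AAV-CNTF against sham; dashed lines give the shares over all genes, 17.0% and 14.3%. MHC and cell division lists reach 100% higher, and myelin genes are lower in 19 of 20.

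Genes of other cell types were as follows, beside shares of 17.0% higher and 14.3% lower over all genes tested. Of 7 skeletal muscle genes 3 were lower, among them Atp2a1 (log2 fold change -2.19 ± 0.78, adjusted p = 0.0373), whose log2 fold change without sham replicate 5 was -0.77 (adjusted p = 0.43) and whose call was also lost without crush AAV-CNTF replicate 2, 3, 4 or 6 (0.056 to 0.081). The number of lower muscle genes was 1 without sham replicate 5 and 0 without crush AAV-CNTF replicate 3, 4 or 6. Of 7 B and plasma cell genes 2 were lower, with the antibody light chain Igkc at 285, 220.0, 107, 48.9 and 81.1 CPM after crush and 360.0, 332, 233, 479 and 313 CPM in sham (log2 fold change -1.21 ± 0.37, adjusted p = 0.0157). With the muscle covariate the call of Igkc was lost (-0.94, adjusted p = 0.25) and 0 genes of that list were lower. Schwann cell genes gave 3 higher and 2 lower of 7, Cdh19 falling by 0.76 and Sox2 by 0.57 on the log2 scale, genes that astrocytes and oligodendrocyte precursors can also express. The adipocyte genes Fabp4 (5.04 ± 1.17) and Lipe (-0.57 ± 0.20) changed in opposite directions, Fabp4 being highest in crush AAV-CNTF replicate 5. Lipe lost its call without crush AAV-CNTF replicate 5 or 6 or sham replicate 3 or 6 (adjusted p from 0.052 to 0.083) and with the muscle covariate (0.28). Fabp4 lost its call with limma-voom and quality weights (adjusted p = 0.10), and its log2 fold change was 3.72 without crush AAV-CNTF replicate 5 and 6.34 without sham replicate 6. The hemoglobin gene Hba-a2 did not pass (log2 fold change -0.97, adjusted p = 0.585).

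**Figure D5:**
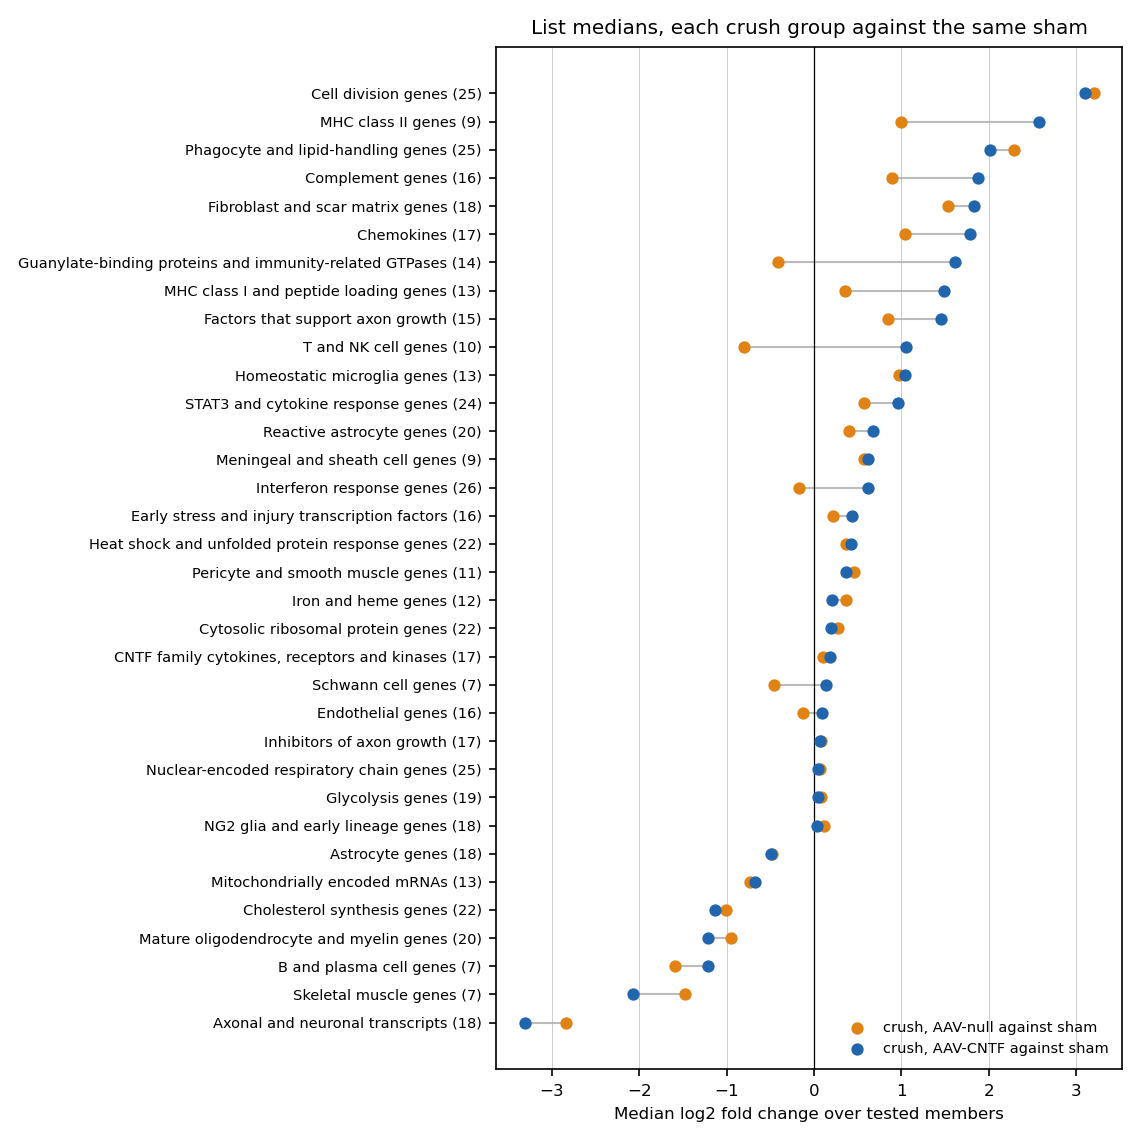
Median log2 fold change of each list (number tested in brackets) for crush with AAV-CNTF (blue) and crush with AAV-null (orange), both against the same 5 sham libraries, with a grey line joining the 2 values. For guanylate-binding proteins the medians are 1.61 and -0.41, and for cell division genes 3.10 and 3.2. Without crush AAV-CNTF replicate 4 the guanylate-binding median for AAV-CNTF is 0.83. Of these 14 genes, 0 passed directly between the crush groups.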

How the data were processed

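RNA was measured by sequencing of ribosome-depleted total RNA from optic nerve. The authors deposited a table of 14237 genes with expected counts and FPKM per library; per the submitters' processing notes, Trimmomatic 0.32, STAR 2.5.3a and RSEM 1.2.31 were used with the mm10 build. FPKM values, scaled by the authors for transcript length and depth, served only to compare levels between genes. Of 2 library kits in the labels, the sources used here do not tie either to a library. Between 13.7 and 18.3% of expected counts were not whole and were rounded. Counts were fitted with edgeR 4.0.16 (R 4.3.3): TMM scaling, filterByExpr by group, 1 mean per group over all 15 libraries, quasi-likelihood tests with 12 residual degrees of freedom, and Benjamini-Hochberg adjustment over 14194 genes. SEs are from the quasi-likelihood F, and intervals are 95%. CPM used TMM-scaled totals. The fit was tested on simulated data. The common coefficient of biological variation was 0.37. Same-numbered crush AAV-CNTF and sham libraries were not paired.

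Alternatives were other scaling, filters, DESeq2 1.42.0, limma-voom 3.58.1, fewer libraries, a replicate block, a muscle covariate and each library left out. Leaving out crush AAV-CNTF replicate 4 and crush AAV-null replicate 6 together was chosen after seeing the data. The comparison and all gene lists were chosen with earlier results of these data known, so a list's count is a description. Some list members are counted but not reported by name here. Named genes were the 6 largest changes in each direction among called genes without overlap whose mean reached 5 CPM, 1 or 2 members of each list with the smallest p and no overlap (or the most abundant member), the CNTF receptor and STAT3 genes, and genes called between the crush groups; others were chosen after their values were seen. Where the rule asked for no overlap, the lack of overlap of a named gene follows from the choice. RefSeq promoters (GRCm38.p6) were searched for 9 motifs in 250 bases before the start, on both strands. Besides those in the report, TTTGAA was present for 18.3% of all genes and for 7 of 21 cell division genes with an entry. Top2a was among these, and the match is not marked in its printed sequence. TGANTCA was present for 7.82% of all genes, TTCAGCACC for 0.35% and TCACGTGA for 0.91%, and these were not used for a result given. Positions of genes are from GENCODE M21, which held 14215 of the 14237 identifiers when versions were ignored.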

Additional observations from a re-analysis of the deposited data

Results flagged for a closer look

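Within groups of 5 libraries, 34 of 295 sets of values for 148 genes had a highest or lowest library whose gap to the rest exceeded Dixon's critical value. That value flags about 1 in 20 sets of normally distributed values. In some sets here only 1 library had counts, as for Kif18b in sham, and some genes were named after their values were seen. The number flagged therefore cannot be set against that rate. Crush AAV-CNTF replicate 4 accounted for 10 of the 34 flagged sets, all as the highest of its group. Its interferon-related values were 648 CPM for Cxcl9, 567 for Gbp2, 444 for Iigp1, 294 for Cxcl10, 162 for Tgtp1 and 140.3 for Gbp9. It was also highest for the peptide transporter Tap1 at 160.2 CPM, the class I gene H2-Q7 at 155, the complement factor Cfb at 55.1 and Stat3 at 249.

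Sham replicate 3 was the highest of its group for Ifit3 at 162 CPM, Cxcl10 at 103, Iigp1 at 40.0, Lipe at 23.8, Cxcl9 at 2.49 and Kif18b at 0.554, and the lowest for Cntfr at 95.2. Sham replicate 5 was highest for Cd74 at 211 CPM and for the muscle genes Atp2a1 at 98.5 and Myh1 at 53.4, and lowest for Il6st at 516. Sham replicate 4 was highest for Cxcl16 at 43.3 CPM, Lif at 4.89 and Kcnj15 at 2.14. Sham replicate 6 was highest for Hist1h2bk at 1.25 CPM and Fabp4 at 0.729, and sham replicate 2 for Trib3 at 1.13.

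Crush AAV-CNTF replicate 5 was highest for Fabp4 at 25.6 CPM, Hba-a2 at 7.86 and Cacng3 at 0.760. Crush AAV-CNTF replicate 6 was highest for Pcp4 at 0.559 CPM and Calb2 at 0.479, replicate 2 for Kif18b at 13.7, and replicate 3 was lowest for Sdf2l1 at 38.5.

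The crushed groups differed in level for 8 genes by the direct test between them, and without a sham group given AAV-CNTF a difference that does not depend on crush cannot be told apart. The log2 fold changes of AAV-CNTF over AAV-null were 7.42 for Cxcl9, 2.73 for H2-Q7, 2.22 for Cd74, 1.75 for H2-Eb1, 1.53 for Plvap, 0.65 for Rhoj, -0.53 for Fyn and -0.85 for Tmem132b. Without crush AAV-CNTF replicate 4 they were 5.23 for Cxcl9, 2.07 for H2-Q7 and 1.54 for Cd74, and of the 8 genes only Plvap passed (1.59).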

How the results depend on the processing

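The 4437 calls of crush with AAV-CNTF against sham kept their direction and threshold in 3807 to 4433 cases under each setting tried other than the muscle covariate, with 0 reversed. With the mean log2 CPM of the skeletal muscle genes as a covariate 2948 remained, 2 changed sign and 1350 genes were lower in all. Atp2a1, which is part of that covariate, turned to 0.59 (adjusted p = 0.376), so its value there is not a test of the gene. Leaving out each library in turn gave 3900 to 4343 calls, 2130 to 2356 higher and 1770 to 1987 lower. Crush with AAV-null against sham gave 3483 to 3863 calls in the same way, 1869 to 2099 higher and 1602 to 1777 lower. Same-numbered libraries did not deviate together between crush AAV-CNTF and sham (correlations from -0.03 to 0.04, none best with its own number), and a replicate block gave 4368 calls there.

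The direct comparison of the crush groups depended on the setting. In place of 8 calls, DESeq2 gave 83 (59 higher, 24 lower), limma-voom 5 (3 higher), the replicate block 16 (14 higher) and the muscle covariate 26 (16 higher, 10 lower). Leaving out each library gave 1 to 41 calls, 1 to 38 higher and 0 to 3 lower: 1 without crush AAV-null replicate 2 or 4, 2 without crush AAV-CNTF replicate 4 or crush AAV-null replicate 5, 3 and 4 without crush AAV-null replicates 3 and 6, 16 without crush AAV-CNTF replicate 3, and 41 without crush AAV-CNTF replicate 6. Leaving out crush AAV-CNTF replicate 4 and crush AAV-null replicate 6 together, chosen after seeing the data, gave 2 (2 higher, 0 lower). The cause was not tested.

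Depth limits the neuronal genes after crush, where the floor of 3 counts over the group is 0.0220 CPM.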
